A study of Mus musculus with 11 samples.

Results

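The genes that mark microglia and the macrophages of the brain's borders were followed in RNA-seq libraries of the anterior cingulate cortex (ACC), a frontal midline region, of mice that had or had not learned to press a lever for food. The members were a list of 38 symbols, drawn up with earlier results of these data known, of which 28 mark microglia, 8 mark border macrophages and 2 encode the receptors for the complement fragment C5a. A member was kept where its symbol had a row in the deposited table of 14974 genes, which left 37 members. They were all 28 microglia genes, 7 border macrophage genes and both C5a receptors, and Ms4a7 was not analysed here.

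All mice were wild-type, C57BL/6 in the labels and C57BL/6J in the methods of the study, 3 to 5 months old, and food-restricted. The 6 Trained mice (3 females and 3 males) pressed a lever on fixed ratio schedules of rising demand for 9 days. The 5 Untrained mice (3 females and 2 males) spent the same time in the same chambers with free access to the same rewards, so chamber and reward were shared and pressing for reward was not. The ACC was taken within 1 h of the last session, each library came from 1 mouse, and each library is called by its group and label number. The values are FPKM, fragments divided by gene length and by the depth of the library, so levels can be compared between genes of different length.

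Microglia are the resident macrophages of the brain tissue. They arise from the yolk sac, depend on signalling through the receptor Csf1r, and patrol the cortex with processes steered by receptors for nucleotides and for neuronal signals such as fractalkine. Border macrophages share much of this program but sit around vessels and in the meninges, carry scavenger and mannose receptors, and are far fewer than microglia in the cortex itself. Both cell types need the transcription factor PU.1, encoded by Spi1. In bulk tissue, fewer cells of a type and less RNA per cell cannot be told apart, so every value below is a level in the tissue.

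Microglia genes were abundant and had nearly the same level in both groups, while most border macrophage genes and C5ar2 had lower levels in Trained mice. The microglia members had mean levels between 1.38 and 35.7 FPKM, and the median of their differences was 0.02 on the log2 scale. The border macrophage members were at 0.375 to 2.20 FPKM, and their median difference was −0.61. P2ry13 stood out among the microglia genes, with lower levels in all 6 Trained mice than in any Untrained mouse. None of these differences passed an adjusted p under 0.05 in limma, and neither did any of the 14936 genes tested (0.0% in either direction, lowest adjusted p 0.334 with limma and Benjamini-Hochberg adjustment). At an unadjusted p under 0.05, 1245 genes (8.34%) were called, 4.13% higher and 4.20% lower in Trained mice. The median difference of all genes was −0.0029. Differences below are Trained minus Untrained on the log2(FPKM + 0.1) scale, which understates the change of genes at low levels.

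**Figure D1:**
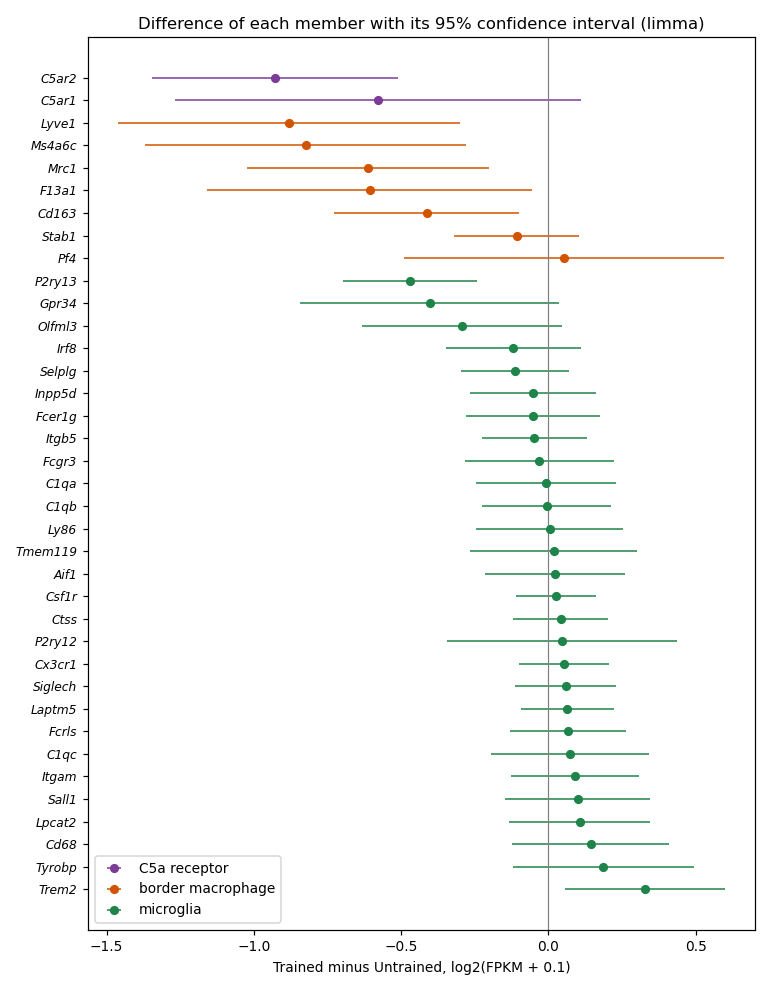
Difference of each of the 37 members on the log2(FPKM + 0.1) scale (x axis, Trained minus Untrained), with points for the limma estimate and lines for its 95% confidence interval, coloured by gene group. Most microglia genes lie near 0 with a median of 0.02, while 6 of 7 border macrophage genes and both C5a receptors lie below 0.

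The presence of microglial RNA was checked on defining markers, which say nothing of the brain region or the group. Tmem119, P2ry12, Sall1, Siglech and Fcrls were detected in every library. Of 21 markers of monocytes, neutrophils and lymphocytes only 3 were in the table (Ly6c2, Flt3 and Cd4), and Ccr2, S100a8 and Cd3e were among the 18 not analysed here. Estimated depth was 17.8 to 27.1 M fragments in Trained and 14.3 to 26.2 M fragments in Untrained libraries. Untrained 10 stood apart in choroid plexus genes, with Ttr at 164 FPKM against at most 10.04 in the others, and Untrained 16 in interferon-stimulated genes, where it was highest in 20 of 21. Library numbers fell into the ranges 1 to 6, all females, and 10 to 17, all males but Untrained 17, and the sources used here do not say what the numbers stand for.

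The genes that define homeostatic microglia differed little between groups. Tmem119, a surface protein found on microglia and not on border macrophages, had a Trained median of 11.7 FPKM (lowest 7.39 in Trained 14, highest 12.3 in Trained 1). In Untrained 5, 6, 10, 16 and 17 it was at 10.4, 11.6, 8.42, 11.9 and 10.9 FPKM. The ranges overlapped almost fully, and the difference was 0.02 (95% confidence interval −0.27 to 0.30). Csf1r, the receptor for the survival factors Csf1 and Il34, was among the steadiest members, with 23.2 to 26.7 FPKM (median 25.9) in Trained mice. Its Untrained levels were 27.0, 25.2, 22.8, 27.3 and 22.8 FPKM, and the difference was 0.03 (interval −0.11 to 0.16). Of its exon bases 873 lie opposite the gene Hmgxb3, whose reads may not be told apart. Cx3cr1, the receptor for fractalkine, ranged from 10.6 to 12.2 FPKM (median 11.6) in Trained mice. It was at 11.95, 11.2, 12.3, 9.51 and 10.5 FPKM in Untrained mice, a difference of 0.05 (interval −0.10 to 0.21). Across all 11 libraries the coefficient of variation was 6.69% for Csf1r and 7.49% for Cx3cr1, the lowest values of the 37 members together with that of Siglech (7.61%). Siglech, an inhibitory lectin (difference 0.06), Fcrls (0.07) and Sall1, a transcription factor that holds microglial identity (0.10), had differences near 0 as well. Olfml3, a secreted matrix protein, had a difference of −0.29 with an interval from −0.63 to 0.04.

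Among the purinergic receptors of microglia P2ry13 separated the groups and P2ry12 did not, and the difference between these genes was not tested. P2ry13, a receptor for ADP, was at 2.01, 2.31, 1.90, 2.35, 2.36 and 2.14 FPKM in Trained 1, 2, 3, 12, 13 and 14. In Untrained 5, 6, 10, 16 and 17 it was at 2.77, 3.03, 3.51, 2.52 and 3.52 FPKM. Every Trained library was below every Untrained one, with means of 2.18 ± 0.193 (SD, n = 6) and 3.07 ± 0.443 (SD, n = 5). The difference was −0.47 (SE 0.105, interval −0.70 to −0.24), the limma p was 5.84e-04 and the adjusted p 0.379. An exact two-sided permutation test of the Trained and Untrained libraries gave p = 0.0043, the smallest it can give. Among all genes 0.388% were lower in Trained mice with no overlap of the groups, 0.375% were higher, and 0.763% were either. The difference of P2ry13 was −0.47 within library numbers 1 to 6 and −0.45 within numbers 10 to 17. Its unadjusted p stayed under 0.05 in each of the 25 alternatives tried, which reuse these same libraries.

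P2ry12, the ADP receptor that draws microglial processes to injury, overlapped between groups. Its Trained levels ran from 9.78 to 12.8 FPKM (median 10.96). The Untrained levels were 8.81, 9.05, 20.1, 9.04 and 9.98 FPKM, so that 4 Untrained libraries lay at the lower edge of the Trained range or below it and Untrained 10 lay far above. The difference was 0.05 (interval −0.34 to 0.44). Without Untrained 10, singled out after its values were seen, it was 0.27, higher in Trained mice, with an unadjusted limma p under 0.05 and an adjusted p of 0.466. Gpr34, a lysophosphatidylserine receptor, was raised in the same Untrained library (5.20 FPKM) and in Trained 14 (4.63 FPKM), against 1.96 to 2.52 in the other Trained and 2.65 to 3.53 in the other Untrained libraries. Its difference was −0.40 (interval −0.84 to 0.04). Without Trained 14, also singled out after its values were seen, it was −0.57, with an unadjusted limma p under 0.05 and an adjusted p of 0.183.

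P2ry12 and P2ry13 are neighbours, with 5389 bases between the annotated genes on the minus strand of chromosome 3, at 59216272 to 59262871 and 59207892 to 59210882 (mm10, GENCODE M21). Their promoters are shown because the groups separated without overlap in P2ry13 and not in its neighbour. They are RefSeq sequences (GRCm38.p6) from 250 bases before to 50 bases after the start site, written 5′ to 3′ on the strand of the gene. Capitals mark GAGGAA or its reverse complement TTCCTC, the core of the site bound by PU.1, which was searched on both strands.
P2ry13 (chr3:59210833-59211132): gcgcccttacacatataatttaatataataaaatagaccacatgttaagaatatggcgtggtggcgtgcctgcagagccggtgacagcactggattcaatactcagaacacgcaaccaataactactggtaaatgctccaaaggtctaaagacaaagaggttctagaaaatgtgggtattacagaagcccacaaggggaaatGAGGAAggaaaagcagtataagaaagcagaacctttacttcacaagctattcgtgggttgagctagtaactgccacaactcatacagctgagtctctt
P2ry12 (chr3:59262936-59263235): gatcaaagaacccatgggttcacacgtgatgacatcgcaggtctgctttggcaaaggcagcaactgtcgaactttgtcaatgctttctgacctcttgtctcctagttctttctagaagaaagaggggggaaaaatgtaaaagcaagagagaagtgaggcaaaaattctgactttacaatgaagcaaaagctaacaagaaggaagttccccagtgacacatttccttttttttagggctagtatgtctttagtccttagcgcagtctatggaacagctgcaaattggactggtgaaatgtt
The P2ry13 promoter holds the core once and the P2ry12 promoter does not hold it in this window. Of all 32851 promoters tabulated by RefSeq, 28.3% hold it, and of the 36 promoters of members 20 hold it (55.6%). Counted by gene, 18 of the 30 members with an entry hold it in at least 1 promoter. That count was 13 of 22 for microglia and 4 of 6 for border macrophage members, and a match describes the letters only. The share of 28.3% counts promoters, and no share by gene over all genes is given here. Genes with more than 1 promoter have more chances in a count by gene, so these counts cannot be set against that share.

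The complement genes C1qa, C1qb and C1qc, whose products form C1q, the starter of the classical pathway and a tag on synapses, were the most abundant members besides Ctss. C1qa was at 24.5 to 35.4 FPKM in Trained mice (median 33.5). Its Untrained levels were 31.5, 33.4, 34.3, 38.7 and 25.4 FPKM. The groups overlapped, and the difference was −0.01 (interval −0.24 to 0.23). C1qb (−0.01) and C1qc (0.07) were also near 0. In all 3 genes Trained 14 was the lowest Trained library, at 24.5, 22.5 and 24.0 FPKM.

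Trem2, a lipid receptor that signals through the adaptor Tyrobp, was the only microglia gene called higher in Trained mice by an unadjusted limma p under 0.05. Trained 1, 2, 3, 12, 13 and 14 had 7.03, 5.31, 7.77, 8.14, 5.17 and 5.50 FPKM, and Untrained 5, 6, 10, 16 and 17 had 5.37, 5.32, 5.03, 5.33 and 4.34 FPKM. Trained 1, 3, 12 and 14 lay above all Untrained libraries and Trained 2 and 13 among them. The difference was 0.33 (SE 0.126, interval 0.05 to 0.60) at p = 0.0221 and adjusted p = 0.562 in limma, and the exact two-sided permutation test gave p = 0.0563. Without Trained 3, Trained 12 or Untrained 17 the limma p was above 0.05, with differences of 0.27, 0.26 and 0.27. Tyrobp itself had a difference of 0.19 (interval −0.12 to 0.49) and a limma p of 0.21 with all libraries. Without Trained 14, singled out after its values were seen, the Tyrobp difference was 0.30, with an unadjusted limma p under 0.05 and an adjusted p of 0.223. Fcer1g, the other signalling adaptor of this family, was at −0.05.

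The other microglia members did not pass that threshold either. They were the lysosomal and phagocytic genes Ctss (0.04), Cd68 (0.14) and Laptm5 (0.06), the integrins Itgam (0.09) and Itgb5 (−0.05), and the Fc receptor Fcgr3 (−0.03). Aif1, which encodes Iba1 (0.02), Ly86 (0.00), Selplg (−0.11), the transcription factor Irf8 (−0.12), the phosphatase Inpp5d (−0.05) and the acyltransferase Lpcat2 (0.11) complete the list. Of the 28 genes, 17 had a higher and 11 a lower mean in Trained mice, and of all genes 49.1% had a higher and 50.9% a lower mean. P2ry13 was lower and Trem2 higher at an unadjusted p under 0.05, against 4.20% and 4.13% of all genes. The count of microglia genes under that threshold was 1 to 6 as each library was left out. The 6 without Trained 14 were P2ry13, Gpr34, Trem2, Tyrobp, C1qc and Cd68. The share of all genes called in each of these fits is not given here, so these counts are not read as a result about microglia. Exons of Itgam share 3450 bases with the overlapping gene Gm49368 on the same strand, so its reads may be split.

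**Figure D2:**
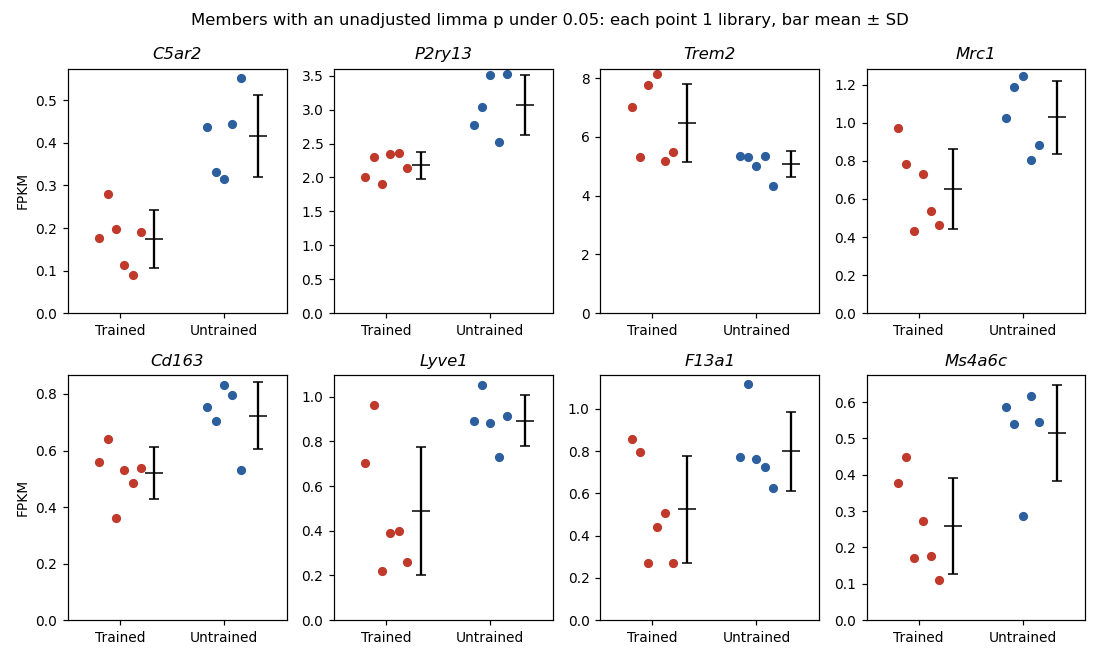
FPKM (y axis, from 0) of the 8 members with an unadjusted limma p under 0.05 in Trained and Untrained mice, with 1 point a library and bars for mean ± SD. C5ar2 and P2ry13 are the genes whose groups do not overlap, and Trem2 is the gene that is higher in Trained mice.

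Of the 7 border macrophage genes 6 had lower means in Trained mice, against 50.9% of all genes. Among them 5 (Lyve1, Ms4a6c, Mrc1, Cd163 and F13a1) were lower at an unadjusted p under 0.05, against 4.20% of all genes. The study had picked Lyve1 and Ms4a6c, like C5ar2, from these same libraries, so their direction is not independent evidence. No border macrophage gene separated the groups without overlap.

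Mrc1 encodes the mannose receptor CD206 and is the standard marker of these cells. It had 0.431 to 0.971 FPKM in Trained mice, with a median of 0.635. The Untrained levels were 1.02, 1.19, 1.24, 0.803 and 0.883 FPKM. Trained 1 was the only Trained library that reached into the Untrained range. The difference was −0.61 (interval −1.02 to −0.20) at p = 0.00658 in limma and p = 0.0217 in the exact permutation test. Cd163, the scavenger receptor for haemoglobin bound to haptoglobin, was at 0.363 to 0.640 FPKM in Trained mice, with a median of 0.535. It was at 0.754, 0.704, 0.831, 0.798 and 0.530 FPKM in Untrained mice, of which Untrained 17 alone fell among the Trained ones. The difference was −0.41 (interval −0.73 to −0.10) with p = 0.0139 in limma and an exact permutation p of 0.0173. The promoters of these marker genes are shown for comparison of the same 6-letter core.
Mrc1 (chr2:14229164-14229463): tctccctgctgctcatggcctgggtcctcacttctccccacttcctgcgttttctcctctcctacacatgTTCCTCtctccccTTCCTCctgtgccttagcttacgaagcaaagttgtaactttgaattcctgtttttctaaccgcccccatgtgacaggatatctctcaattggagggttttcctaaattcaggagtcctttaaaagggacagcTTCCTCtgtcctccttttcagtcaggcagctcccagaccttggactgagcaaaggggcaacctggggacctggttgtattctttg
Cd163 (chr6:124304401-124304700): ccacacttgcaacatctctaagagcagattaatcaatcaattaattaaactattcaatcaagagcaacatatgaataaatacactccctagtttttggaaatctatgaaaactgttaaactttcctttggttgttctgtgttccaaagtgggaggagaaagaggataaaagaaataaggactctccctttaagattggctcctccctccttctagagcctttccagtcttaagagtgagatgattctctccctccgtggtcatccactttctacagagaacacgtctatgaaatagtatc
The Mrc1 promoter holds the core 3 times, each time as TTCCTC, and the Cd163 promoter does not hold it in this window.

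Lyve1, a hyaluronan receptor of border macrophages and of lymphatic vessels, had the largest difference of the 7. Trained 1, 2, 3, 12, 13 and 14 had 0.703, 0.961, 0.220, 0.389, 0.399 and 0.259 FPKM. Untrained 5, 6, 10, 16 and 17 had 0.889, 1.05, 0.880, 0.728 and 0.914 FPKM, so that Trained 2 alone was above the lowest Untrained library. The difference was −0.88 (interval −1.46 to −0.30), with a limma p of 0.00597 and an exact permutation p of 0.0346. Ms4a6c, a membrane protein of macrophages, had 0.110 to 0.449 FPKM in Trained mice (median 0.224) and 0.587, 0.539, 0.286, 0.616 and 0.546 FPKM in Untrained mice. Only Untrained 10 fell among the Trained libraries. Its difference was −0.82 (limma p = 0.00601, exact permutation p = 0.0217), and 1088 of its exon bases lie opposite the transcript BE692007. With the gene length of GENCODE M21 its values correspond to about 4 to 25 fragments in Trained and 11 to 29 in Untrained libraries.

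F13a1, the A subunit of coagulation factor XIII, had 0.269 to 0.860 FPKM in Trained mice (median 0.473) and 0.772, 1.12, 0.761, 0.725 and 0.625 FPKM in Untrained mice. Trained 1 and 2 lay within the Untrained range. Its difference of −0.61 was the least firm of the 5, with p = 0.0334 in limma and p = 0.0736 in the exact permutation test, and its limma p was above 0.05 without any 1 of Trained 3, 12 and 14 and Untrained 5, 6 and 10. The members that did not follow were Stab1, a scavenger receptor also present in other cells, at −0.11 (interval −0.32 to 0.10), and Pf4, a chemokine also made by platelets, at 0.05 (interval −0.49 to 0.60). Stab1 was the most abundant of the 7, with a Trained mean of 2.12 ± 0.190 FPKM (SD, n = 6) and an Untrained mean of 2.302 ± 0.270 FPKM (SD, n = 5).

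**Figure D3:**
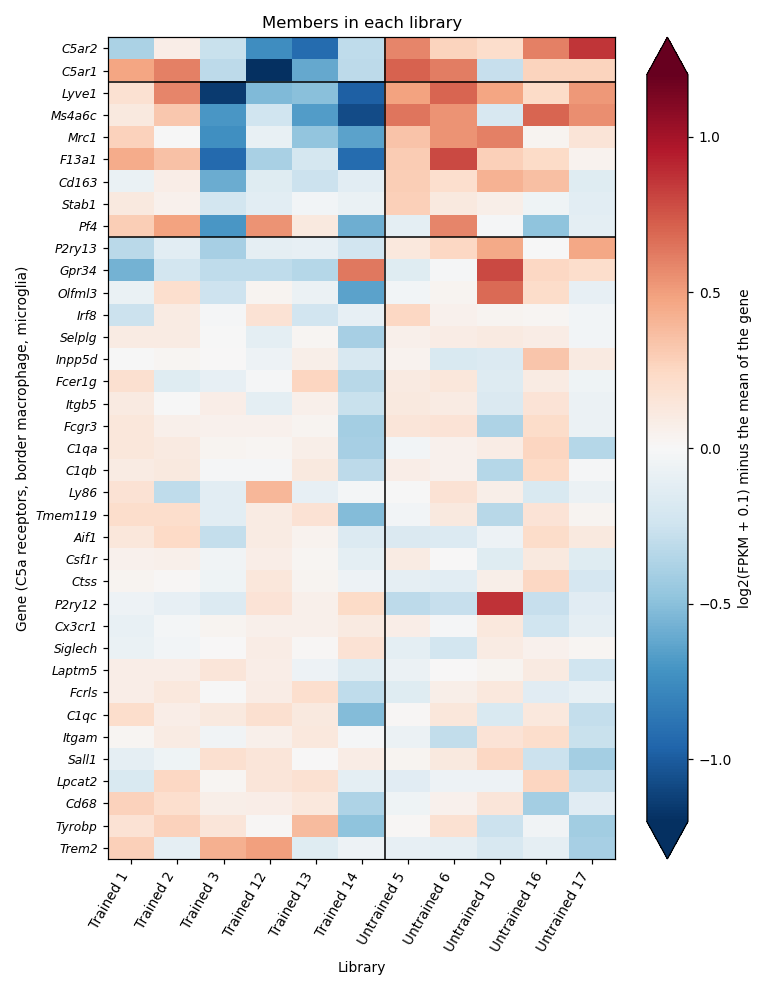
Level of each member in each of the 11 libraries, as log2(FPKM + 0.1) minus the mean of the gene (red above, blue below), with the C5a receptors on top, border macrophage genes in the middle and microglia genes at the bottom. Trained 3 is the lowest library in 6 of 7 border macrophage genes, Trained 14 is the lowest in 11 of 28 microglia genes, and P2ry12 is raised in Untrained 10.

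C5ar2, the C5a receptor that does not couple to G proteins, had the lowest p of the 37 members and rank 14 by p among all genes. It was at 0.176, 0.279, 0.198, 0.114, 0.0889 and 0.190 FPKM in Trained 1, 2, 3, 12, 13 and 14. In Untrained 5, 6, 10, 16 and 17 it was at 0.438, 0.332, 0.315, 0.444 and 0.551 FPKM. All Trained libraries were below all Untrained ones, with means of 0.174 ± 0.0675 (SD, n = 6) and 0.416 ± 0.0960 (SD, n = 5). The difference was −0.93 (SE 0.195, interval −1.35 to −0.51), with p = 3.32e-04, adjusted p = 0.334 in limma and p = 0.0043 in the exact permutation test. These levels correspond to about 7 to 27 fragments in Trained and 21 to 35 in Untrained libraries. The gene shares 127 exon bases with the small nuclear RNA gene Gm26473 on the same strand.

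C5ar1, the C5a receptor that does signal through G proteins and is found on microglia and other myeloid cells, varied more. Its Trained levels were 0.488, 0.545, 0.240, 0.0592, 0.176 and 0.241 FPKM and its Untrained levels 0.590, 0.549, 0.249, 0.410 and 0.409 FPKM. Trained 1 and 2 lay among the Untrained libraries and Trained 12, with about 3 fragments, lay lowest. The difference was −0.58 (interval −1.27 to 0.11), with an exact permutation p of 0.156. With the range of the library number as a covariate it was −0.66, with an unadjusted limma p under 0.05 and an adjusted p of 0.394. The receptor genes adjoin each other on the minus strand of chromosome 7, C5ar1 at 16246743 to 16259540 and C5ar2 at 16234585 to 16244154, with 2588 bases between them. Their promoters are printed because both neighbours had lower means in Trained mice.
C5ar2 (chr7:16242282-16242581): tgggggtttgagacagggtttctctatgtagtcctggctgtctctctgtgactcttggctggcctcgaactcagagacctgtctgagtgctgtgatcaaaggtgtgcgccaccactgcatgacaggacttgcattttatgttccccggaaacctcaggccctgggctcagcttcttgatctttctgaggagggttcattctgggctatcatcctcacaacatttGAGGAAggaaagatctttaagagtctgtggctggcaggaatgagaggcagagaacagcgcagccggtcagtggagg
C5ar1 (chr7:16259289-16259588): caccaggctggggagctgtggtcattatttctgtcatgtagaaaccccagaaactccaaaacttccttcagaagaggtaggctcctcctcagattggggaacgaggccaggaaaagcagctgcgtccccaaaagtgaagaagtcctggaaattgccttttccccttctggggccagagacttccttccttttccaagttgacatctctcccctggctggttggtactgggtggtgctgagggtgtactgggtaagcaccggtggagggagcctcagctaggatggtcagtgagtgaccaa
The C5ar2 promoter shown lies within the annotated gene and holds the PU.1 core once. The other RefSeq promoter of C5ar2 (chr7:16244105-16244404) covers the annotated start of the gene at 16244154 and does not hold it. The promoter of C5ar1 does not hold it either.

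To set the cell types side by side, the mean of log2(FPKM + 0.1) centred on each gene was taken over each gene group in each library. The microglia level lay between −0.18 and 0.07 in Trained and between −0.10 and 0.06 in Untrained libraries. The border macrophage level was 0.19, 0.27, −0.72, −0.14, −0.29 and −0.63 in Trained 1, 2, 3, 12, 13 and 14 and 0.32, 0.50, 0.24, 0.14 and 0.12 in Untrained 5, 6, 10, 16 and 17. Trained 1 and 2 lay among the Untrained libraries, and the other 4 Trained libraries lay below all of them. Border minus microglia level averaged −0.22 ± 0.36 (SD, n = 6) in Trained and 0.26 ± 0.15 (SD, n = 5) in Untrained mice, a difference of −0.48. The members were chosen with results known, so no p is given for it.

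Over all libraries the border macrophage level overlapped between groups, and within each range of library numbers it did not. With 2 or 3 libraries a group and members chosen with results known, that separation is a description and not support. In numbers 1 to 6 it was at most 0.27 in the 3 Trained and at least 0.32 in the 2 Untrained libraries. In numbers 10 to 17 it was at most −0.14 in the 3 Trained and at least 0.12 in the 3 Untrained libraries. The difference of border minus microglia level was −0.51 in the first and −0.49 in the second range. The ranges are too small for a firm test of each gene. None of the 7 border macrophage genes had a limma p under 0.05 in numbers 1 to 6 alone. Mrc1 (−0.66), Lyve1 (−1.08), F13a1 (−0.69) and Ms4a6c (−1.02) had it in numbers 10 to 17 alone, with adjusted p of 0.577 to 0.689. By the thresholds of the study that fit called 47 genes higher and 40 lower, against 22 and 20 with all libraries. The share of all genes at an unadjusted p under 0.05 in these fits is not given here, so these counts are not read as a result about border macrophages.

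Meningeal genes moved with the border macrophage level. All 16 markers of meningeal fibroblasts had lower means in Trained mice, against 50.9% of all genes, with a median difference of −0.33. Untrained 10 was the highest library in 11 of them and Trained 3 the lowest in 10, so these genes are not separate events. Igf2 (−0.57) was the only 1 with an unadjusted p under 0.05. Their summed level was 402 to 1040 FPKM in Trained and 644 to 1070 FPKM in Untrained libraries. Most of that sum was 1 gene, Ptgds, at 358.8 to 961.8 FPKM in Trained and 585.5 to 982.4 FPKM in Untrained libraries. Trained 3 and 14, the lowest libraries in border macrophage level, were also the lowest in meningeal level, at −0.81 and −0.61 against −0.20 to 0.62 in the others. Meningeal levels were 0.26, 0.18, 0.14 and −0.12 in Trained 1, 2, 12 and 13. Border macrophage levels of the same libraries were 0.19, 0.27, −0.14 and −0.29. In Untrained 5, 6, 10, 16 and 17 meningeal levels were 0.16, 0.39, 0.62, −0.20 and −0.03. Border macrophage levels there were 0.32, 0.50, 0.24, 0.14 and 0.12. Leaving out Trained 3 and 14, a choice made after seeing the data, gave a border minus microglia difference of −0.30, and Mrc1 (−0.41), Lyve1 (−0.55) and Ms4a6c (−0.57) kept an unadjusted p under 0.05. The part of the meninges, and of how much of them was dissected, in these differences was not tested. Without Trained 3 and 14 the differences of C5ar2 and P2ry13 were −0.996 and −0.42, against −0.93 and −0.47 with all libraries.

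**Figure D4:**
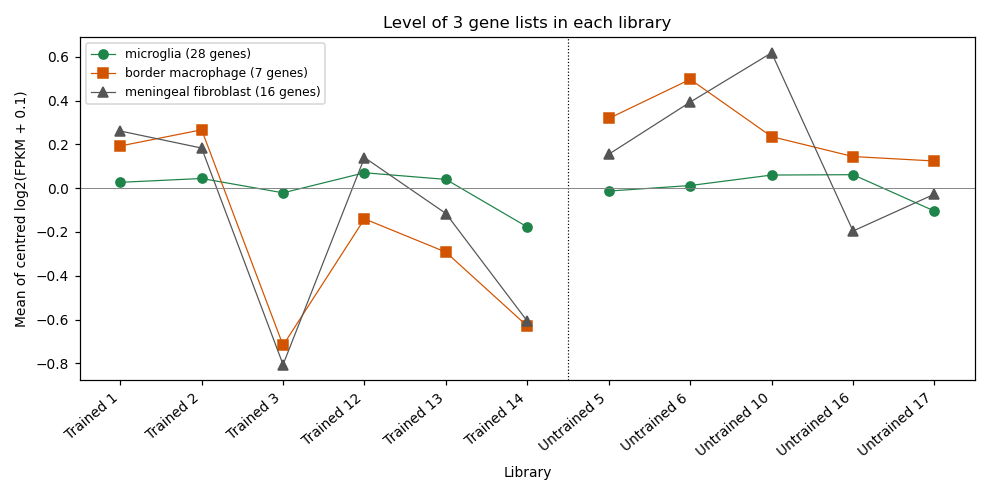
Level of the microglia, border macrophage and meningeal fibroblast genes in each library (y axis, mean of log2(FPKM + 0.1) centred on each gene), with Trained libraries left and Untrained libraries right of the dotted line. Border macrophage and meningeal levels are both lowest in Trained 3 and Trained 14, while the microglia level stays between −0.18 and 0.07.

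Further genes listed for the same cell types were compared, and as their lists were chosen with earlier results known they are not independent evidence. Of 44 other microglia and myeloid genes tested, 21 had a higher and 23 a lower mean difference, with a median of −0.01. At an unadjusted p under 0.05, 5 of them were higher and 4 lower, against 4.13% and 4.20% of all genes. The genes with the smallest p were Fyb, an adaptor of immune receptor signalling (−0.35), the secreted protease inhibitor Cst3 (0.26) and Spi1, which encodes PU.1 (0.33). Spi1 averaged 2.49 ± 0.319 FPKM (SD, n = 6) in the Trained and 1.96 ± 0.270 FPKM (SD, n = 5) in the Untrained group, with an adjusted p of 0.537 in limma. Of 22 other border macrophage genes on the list, Folr2, Clec10a and Mgl2 were among the 11 not analysed here. Of the 11 tested, 10 had a lower mean in Trained mice, against 50.9% of all genes, with a median difference of −0.33. The protease gene Ctsc (−0.46), the endocytic adaptor gene Dab2 (−0.49) and Ms4a6d (−0.36) were lower at an unadjusted p under 0.05. Of all genes 4.20% were lower at that threshold.

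Genes of microglial reaction gave no calls. None of the 13 reactive microglia genes tested had a p under 0.05 in limma, 5 had higher and 8 lower means, and the smallest p values belonged to Spp1 (−0.39), Tlr2 (−0.30) and Gpnmb (0.21). Of 24 such genes on the list, Itgax, Cst7, Clec7a, Il1b and Tnf were among the 11 not analysed here. Of 22 other complement genes tested, Cd55 (−0.52) and Serping1 (−0.51), inhibitors of the cascade, were lower at an unadjusted p under 0.05. None was higher, and of all genes 4.20% were lower and 4.13% higher at that threshold. Serping1 was at 1.43, 1.99 and 1.42 FPKM in Trained 3, 13 and 14. In Trained 1, 2 and 12 it was at 3.06 to 3.22 FPKM, within the Untrained range of 2.89 to 3.81 FPKM. Trained 3 and 14 were also the lowest libraries in meningeal level, and the part of the meninges in this call was not tested. Among 10 genes for ligands of microglial receptors, Cd200, which encodes a neuronal brake on microglia, was lower (−0.12), and the others, Csf1, Il34 and Cx3cl1 included, were not called.

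Markers of other cells showed where else the libraries differed. Endothelial markers (12 genes, median −0.02) had 1 lower call, Adgrl4 (−0.45), mural cell markers (10 genes, median −0.13) and oligodendrocyte markers (10 genes, median 0.13) had none, astrocyte markers (11 genes, median −0.06) had Gja1 lower (−0.20), and neuron markers (10 genes, median 0.01) had Slc32a1 higher (0.12). Of the choroid plexus markers 5 were tested, all with lower means in Trained mice, against 50.9% of all genes, and Kcnj13 (−0.79) and Kl (−0.77) were called. Untrained 10 was the highest library in both, with Kcnj13 at 2.77 FPKM (others at most 1.22) and Kl at 2.96 FPKM (others at most 0.712). Interferon-stimulated genes (21 tested, median −0.36) had 5 lower calls at an unadjusted p under 0.05, with Samd9l (−0.77) first, and Untrained 16 was the highest library in 20 of them. Of all genes 4.20% were lower and 4.13% higher at that threshold. Without Untrained 10 and 16, left out after seeing the data, the border minus microglia difference was −0.57. Lyve1 (−0.97), Ms4a6c (−0.95) and Mrc1 (−0.62) still had an unadjusted p under 0.05 there, as had P2ry13 (−0.49) and C5ar2 (−0.99), while Cd163 (−0.30) and F13a1 (−0.65) had not. The part of choroid plexus and interferon genes in the results was not tested.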

How the data were processed

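Libraries of the ACC of 6 Trained and 5 Untrained mice, 1 mouse a library, were analysed, and 1 further untrained male that the authors removed for few reads was not analysed here. According to the labels and the methods of the study, RNA was made into stranded mRNA libraries (Kapa), reads were trimmed with Trimmomatic 0.38, then aligned with Bowtie2 2.3.5.1 (mm10) and assigned to genes by featureCounts of Subread 1.6.3. The authors deposited FPKM values for 14974 genes. The annotation, the strand setting of the counting and the way counts became FPKM are not stated in the sources used here, so reads of genes that overlap on opposite strands may not be told apart. A second deposited table holds the authors' own comparison (edgeR 3.30.3, with log2 fold change, p and false discovery rate per gene) and was not used.

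The members and all gene lists were chosen with earlier results of these data known. Genes whose mean reached 0.1 FPKM (14936, all 37 members among them) were compared on log2(FPKM + 0.1) with limma 3.58.1 in R 4.3.3 (lmFit and eBayes with a trend), with Benjamini-Hochberg adjustment over all genes tested. FPKM are not counts, so no count test was run. Single members were also compared with an exact two-sided permutation test (scipy 1.17.1, over all 11 libraries, smallest p 0.0043). Python 3.11.15, numpy 2.4.6, pandas 2.3.3 and matplotlib 3.10.9 were used for summaries and plots. The fit was tested on simulated data.

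All members have a value in the text. Values by library were given for members with an unadjusted p under 0.05, for Lyve1, Ms4a6c and C5ar2, which the study had picked on these libraries, and for Mrc1, Cd163, Tmem119, P2ry12, Csf1r, Cx3cr1, Trem2, C1qa and C5ar1, and 1 further gene of that rule is not reported here. For the other lists counts and at most 3 genes with the smallest p were given, and further genes named with them were chosen after their values were seen. Coordinates, gene lengths and overlaps were taken from GENCODE M21 (mm10), where 96.2% of the gene names were found. Depth was estimated from low FPKM values that step in whole fragments. At the estimated depth 42.6% to 51.8% of those values lay within 0.1 of a whole number, so reads were not recovered and fragment numbers are estimates. Intervals are 95% confidence intervals. The limma p-values set the group difference against the spread between these mice, which limma moderates with that of all genes tested.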

Additional observations from a re-analysis of the deposited data

Results flagged for a closer look

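In groups of 5 or 6 libraries, 80 groups of values (37 members and the list levels in each group) were screened for a library far from the others, which chance gives in about 1 of 20 groups. Trained 14 accounts for most of the values found. It was the lowest Trained library in C1qa at 24.5 FPKM (others 32.9 to 35.4), in C1qb at 22.5 FPKM (others 27.8 to 30.5), in C1qc at 24.0 FPKM (others 36.6 to 39.9), in Cd68 at 3.61 FPKM (others 4.95 to 5.72) and in Fcgr3 at 6.99 FPKM (others 9.49 to 10.2). Gpr34 went the other way, at 4.63 FPKM in Trained 14 and 1.96 to 2.52 FPKM in the other Trained libraries. The microglia level of Trained 14 was −0.18 against −0.02 to 0.07 in the other Trained libraries. These genes come from the same library and are not separate events.

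Untrained 10 had P2ry12 at 20.1 FPKM while the other Untrained libraries had 8.81 to 9.98 FPKM, and Ms4a6c at 0.286 FPKM where the others had 0.539 to 0.616 FPKM. The same library held the highest Gpr34 and Olfml3 values and the choroid plexus signal described above. Irf8, a transcription factor of myeloid cells, reached 1.65 FPKM in Untrained 5, above a range of 1.35 to 1.43 FPKM in Untrained 6, 10, 16 and 17.

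Itgam, the integrin chain also called CD11b, was the member in which every female Trained library lay above every female Untrained one and every male Trained library below every male Untrained one. The training difference in males minus that in females was −0.37, with a limma interaction p of 0.0266 and an adjusted p of 0.959, so it did not pass the correction over all genes.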

How the results depend on the processing

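No paired analysis was possible because the groups share no library number. The border macrophage median, border minus microglia level and the 8 members with an unadjusted p under 0.05 changed direction in none of the alternatives tried. The microglia median, 0.02 with all libraries, lay on the other side of 0 in numbers 10 to 17 alone (−0.0016). C5ar2 kept an unadjusted p under 0.05 in 24 of 24 alternatives and P2ry13 in 25 of 25, with adjusted p between 0.180 and 0.824 for each. The filter at a mean of 1 FPKM removed C5ar2, so it has 1 alternative fewer. These alternatives reuse the libraries in which both genes stood out, so they are not independent support. By the thresholds of the study (unadjusted p under 0.01 and at least 1.5-fold) 22 genes were higher and 20 lower. With a pseudocount of 1 these became 12 and 0, and the border macrophage median was −0.25, which follows from the larger pseudocount shrinking low genes. When genes needed a mean of 1 FPKM, 6 genes were lower, and of the border macrophage members Stab1 alone was left, so that their median was −0.11, border minus microglia level −0.10 and the count of members under p 0.05 was 0. In numbers 1 to 6 alone that count was 0 and 4 microglia genes were called. In numbers 10 to 17 alone 47 genes were higher, 40 lower and 1 microglia gene was called. Array weights gave 13 lower genes and 4 microglia genes. Chosen after seeing the data, leaving out Trained 3 and 14 gave 3 border macrophage and 5 microglia genes, and leaving out Untrained 10 and 16 gave 11 lower genes, 3 border macrophage and 5 microglia genes. Apart from the pseudocount and the fewer genes or libraries, the cause was not tested. The share of all genes at an unadjusted p under 0.05 in each alternative is not given here. With each library left out in turn, 16 to 35 genes were higher and 11 to 35 lower. The microglia median was 0.0036 to 0.0537, the border macrophage median −0.72 to −0.48, and border minus microglia level −0.57 to −0.38. The border macrophage count was 4 to 5 and the microglia count 1 (without Trained 3, Trained 12 or Untrained 17) to 6 (without Trained 14). Quantile normalization and median centring left 17 microglia genes higher and 6 border macrophage genes lower. The estimated fragments fell below 20 in at least 1 library for C5ar1, C5ar2, Ms4a6c, Pf4 and Lyve1, which limits their precision.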

Other observations

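Whether the effect of training differed between females and males was compared with an interaction term over all genes. Of the 37 members, C1qa (−0.48), Ctss (−0.27), Itgam (−0.37), Laptm5 (−0.32) and Olfml3 (−0.67) had an unadjusted limma p under 0.05 for the difference in males minus that in females, against 4.1% of all genes, and none passed the adjustment (lowest adjusted p 0.959). In all 5 the training difference was higher in females. For C1qa it was 0.20 in females and −0.27 in males, and for Olfml3 it was −0.01 in females and −0.68 in males. The male groups hold 3 Trained and 2 Untrained mice, among them Trained 14 and Untrained 10. The border macrophage genes with an unadjusted p under 0.05 had the same direction in both sexes, as for Lyve1 (−0.69 in females and −1.02 in males) and Mrc1 (−0.50 and −0.72), and P2ry13 (−0.56 and −0.37) and C5ar2 (−0.76 and −1.06) did too.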
